A study of Mus musculus with 24 samples.

Results

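CD4 single-positive thymocytes (SP4) were set against CD8 single-positive thymocytes (SP8), using the 3 arrays titled SP4 (replicates 10, 11 and 12) and the 3 titled SP8 (replicates 13, 14 and 15), 6 of the 24 arrays of the series. Both groups were sorted by flow cytometry from mouse thymus heterozygous for Foxn1 (+/-), the transcription factor of thymic epithelium, and are called wild type in the titles; both groups therefore carry the same mutant allele. The levels of double-positive (DP, n = 3) and stage 3 double-negative thymocytes (DN3, n = 3), both also heterozygous for Foxn1, and of B cells from wild-type fetal liver (3 arrays of IgM- and 3 of IgM+ cells, pooled here) are given beside them. The same fit also holds DP thymocytes (n = 4) and IgM- B cells (n = 2) from transgenic thymus deficient in Foxn1 (-/-), which complete the 8 groups of the series and enter here only through the shared estimate of the spread. Strain, age, pooling and the number of animals are not stated in the labels, so p-values rest on the spread of these arrays alone, part of which may be technical. The SP4 samples carry a cell type label that lists SP8 as well, so membership rests on the titles.

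Thymocytes that carry both coreceptors are selected on peptide-MHC complexes and then keep only 1 coreceptor. Cells restricted by MHC class II keep CD4 under the zinc-finger factor ThPOK (gene Zbtb7b) and become helper T cells, while cells restricted by MHC class I keep CD8 under Runx3 and become cytotoxic T cells. Tcf7 (TCF-1), Lef1, Satb1 and Ets1 encode nuclear factors that act in T cell development and around this choice.

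Each sample was read on a 1-colour Agilent array after global PCR amplification of its cDNA, a procedure for very small samples. Some of the probes discussed below, each a 60-base oligonucleotide, are shown here 5′ to 3′. All bases are in capitals because the whole oligonucleotide hybridises. The Cd8a, Cd4 and Zbtb7b probes shown are not the brightest of their genes. Positions follow the array's own annotation (build mm9).
Cd8a probe A_52_P150547 (chr6:71323885-71323944, plus strand): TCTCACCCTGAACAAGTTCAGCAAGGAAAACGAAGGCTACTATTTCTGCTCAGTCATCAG
Cd4 probe A_52_P383089 (chr6:124817706-124817765, minus strand): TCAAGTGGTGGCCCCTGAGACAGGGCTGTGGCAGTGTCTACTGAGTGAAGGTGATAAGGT
Zbtb7b probe A_55_P2020348 (chr3:89184324-89184383, minus strand): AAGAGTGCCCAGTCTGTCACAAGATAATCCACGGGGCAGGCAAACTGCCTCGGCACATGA
Trbc2 probe A_51_P478172 (chr6:41497058-41497622, plus strand): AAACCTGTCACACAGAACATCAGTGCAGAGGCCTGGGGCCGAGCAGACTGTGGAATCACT
Ets1 probe A_52_P232830 (chr9:32561826-32561885, plus strand): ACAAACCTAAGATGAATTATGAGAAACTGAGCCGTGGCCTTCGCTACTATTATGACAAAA
The Trbc2 probe covers 565 genomic bases, so it joins separate exons of the T cell receptor beta constant gene, whereas each of the other 4 lies in 60 contiguous bases.

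No gene differed between SP4 and SP8 at an adjusted p under 0.05 (limma on all 24 arrays, Benjamini-Hochberg over 33464 genes), a background of 0.0%. The smallest adjusted p was 0.365. On the level of 52859 probes the count was also 0 (0.0%), with a smallest adjusted p of 0.156. At an unadjusted p under 0.05, 563 genes (1.68%) were higher and 1157 genes (3.46%) were lower in SP4, which became 976 higher and 1092 lower with normexp and quantile scaling, and 223 higher and 1101 lower without SP8 replicate 15. All SP4 arrays lay above all SP8 arrays for 1333 genes (3.98%) and below them for 2237 genes (6.68%), and 46.1% of genes had a difference above 0. With arrays scaled to their median instead, the groups did not overlap for 1809 genes higher and 1769 genes lower in SP4. The lean of this count towards lower genes was thus absent with median scaling, but quantile scaling kept it, at 1646 genes higher and 2102 lower. At an unadjusted p under 0.05 (limma), median scaling still gave 674 genes higher and 969 lower in SP4. With 3 arrays a group, an exact two-sided permutation test cannot give a p below 0.10. Every difference below is therefore a value that did not pass the test, and is given as log2 signal of SP4 minus SP8 after subtracting each array's 75th percentile.

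Arrays of the same group resembled each other about as much as arrays of different groups. Across genes, the correlation of arrays was 0.903 to 0.914 among SP4, 0.922 to 0.954 among SP8 and 0.894 to 0.934 between SP4 and SP8. The median standard error of a difference was 0.40. Probes well above background made up 91.1%, 91.6% and 90.3% of the SP4 arrays, against 96.6%, 91.8% and 87.4% of the SP8 arrays, so SP8 replicates 13 and 15 held the highest and the lowest share of the 6.

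**Figure D1:**
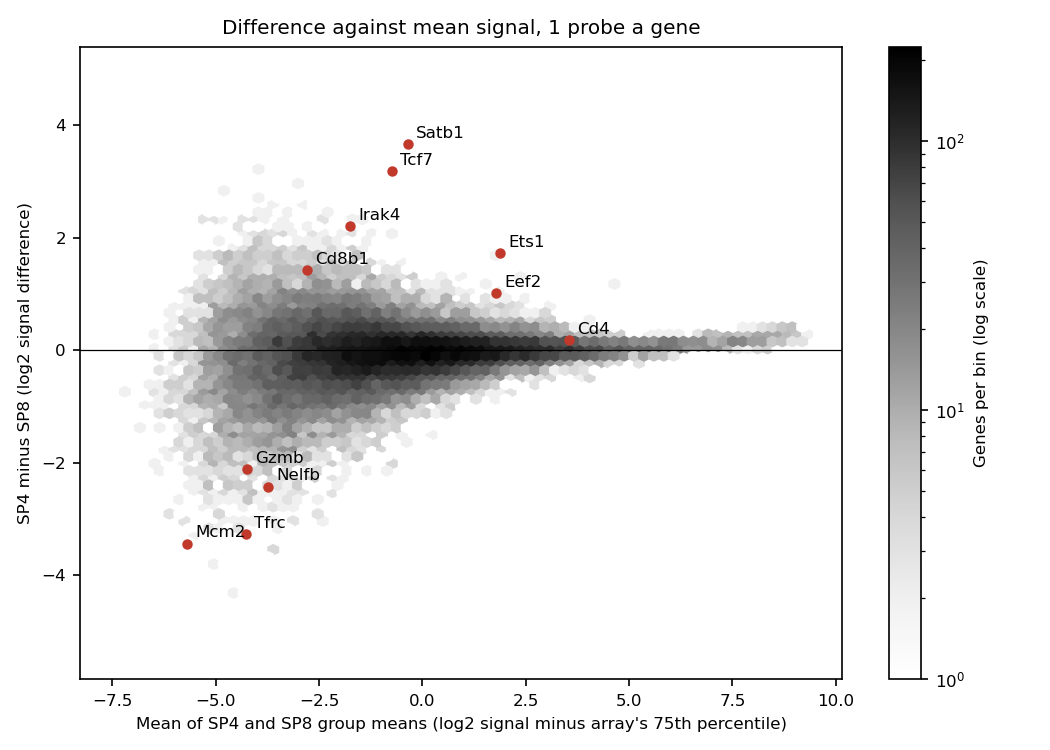
SP4 minus SP8 (log2 signal difference) of 33464 genes against the mean of both groups (log2 signal minus each array's 75th percentile); grey hexagons count genes and red points are named genes. Dim genes scatter widely and bright genes lie close to 0, with Satb1 at 3.66, Tcf7 at 3.18 and Tfrc at -3.27.

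Of the coreceptor genes, a Cd8a probe separated the groups the way the labels say, a Cd8b1 probe separated them the opposite way, and Cd4 hardly differed. Cd8a encodes the alpha chain of CD8. Its probe A_52_P150547 read -3.53, -3.73 and -5.62 on the SP4 arrays, against -0.40, -0.63 and -0.07 on the SP8 arrays. Each SP8 array was above every SP4 array, and SP4 replicate 12 was not well above background. The difference was -3.93 ± 0.89 (SE, 95% interval -5.80 to -2.05) with a limma adjusted p of 0.466 over all probes. DP thymocytes, which carry CD8 on the surface, read -2.90 to -1.37 on this probe, below SP8, and fetal liver B cells read -6.47 to -3.00. The value within the slide that held SP4 10, SP4 12 and all SP8 arrays was -4.21.

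The brighter Cd8a probe, A_52_P443334, did not show that separation. It read -0.47, -1.18 and -0.99 in SP4 and -0.39, -1.20 and -1.09 in SP8, a difference of 0.01 (95% interval -1.14 to 1.16). Cd8b1, the beta chain of CD8, read -2.42, -2.36 and -1.45 in SP4, against -2.75, -3.87 and -3.89 in SP8. All SP4 arrays were above all SP8 arrays here, against the labels, by 1.43 ± 0.47 (SE; limma adjusted p 0.779). SP8 and DP cells overlapped on the Cd8b1 probe, with DP at -4.33 to -3.06, and B cells spanned -4.33 to -1.76.

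Cd4 was bright and level in all cell types. Probe A_55_P2013655 read 3.58, 3.70 and 3.61 in SP4, against 3.45, 3.52 and 3.39 in SP8, a difference of 0.18 (95% interval -0.14 to 0.49). The arrays did not overlap, but fetal liver B cells, which do not use CD4, read 3.44 to 3.90 on the same probe. Probe A_52_P383089, printed above, read 2.42, 2.00 and 2.57 in SP4 and 2.40, 2.23 and 2.61 in SP8, and B cells read 2.17 to 2.71. Neither Cd4 probe thus separated cells that carry CD4 from cells that lack it.

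**Figure D2:**
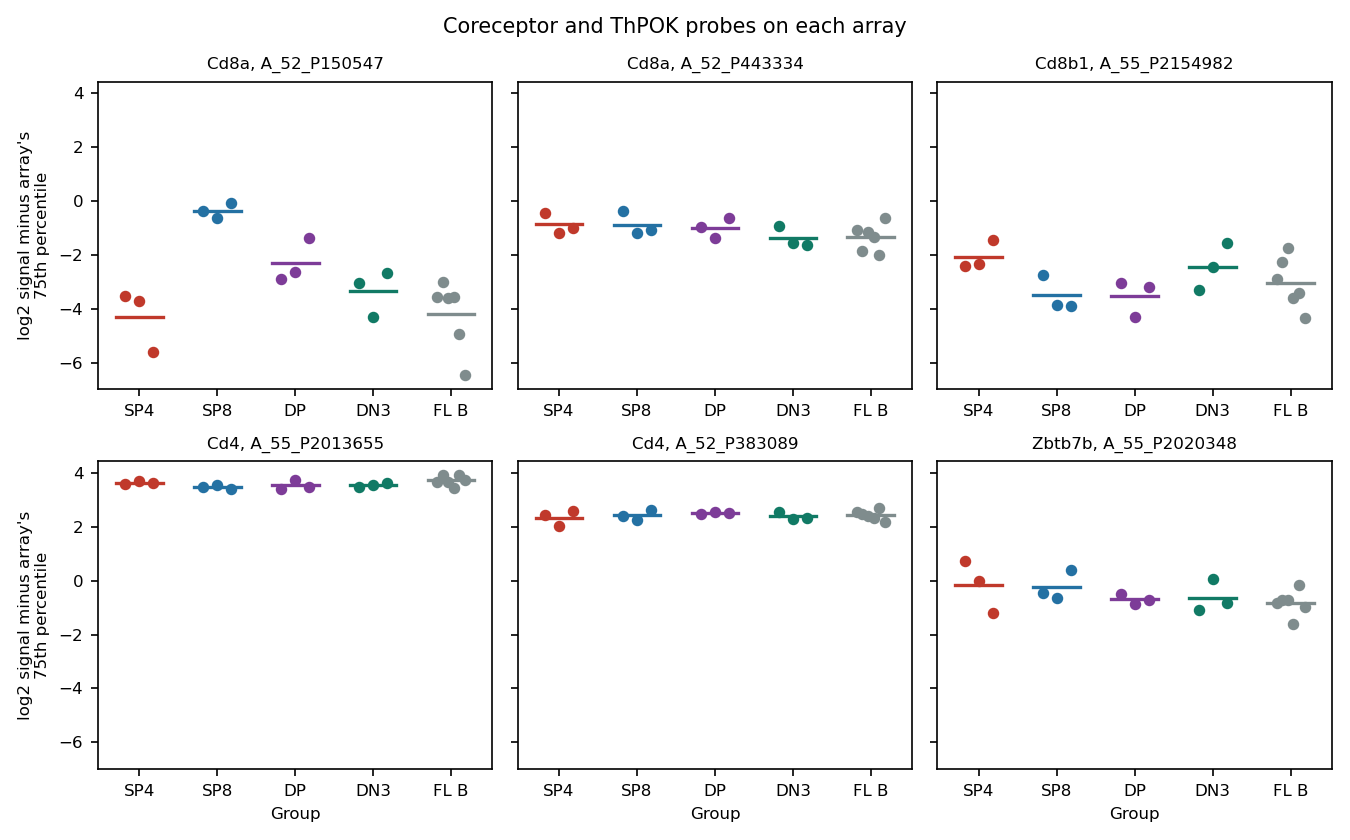
Log2 signal minus each array's 75th percentile for 6 probes in SP4, SP8, DP, DN3 and fetal liver B cells (FL B); points are arrays and bars are group means. SP8 stands above SP4 on Cd8a probe A_52_P150547 and below it on the Cd8b1 probe, while both Cd4 probes are level in every group.

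The brightest probes of the lineage regulators were also level. Zbtb7b, the CD4 lineage factor, read 4.66, 4.74 and 4.88 in SP4 and 4.69, 4.83 and 4.73 in SP8 on its brightest probe. Its difference was 0.01 (95% interval -0.37 to 0.39), and its other probes gave 0.40 and, for the one printed above, 0.06. Runx3, the CD8 lineage factor, read 1.36, 2.29 and 1.61 in SP4 and 1.44, 1.50 and 1.77 in SP8, a difference of 0.19 (95% interval -0.39 to 0.76), and its dimmer probe gave 1.02 with overlapping arrays. Fetal liver B cells read 4.39 to 4.92 on the brightest Zbtb7b probe and 1.22 to 2.12 on the brighter Runx3 probe. Neither probe separated single-positive cells from B cells, so level readings on them cannot show whether the transcripts differ. Cd40lg, the CD40 ligand of helper T cells, read 0.26, 0.40 and 0.06 in SP4 and -0.04, 0.45 and 0.06 in SP8. The groups overlapped for these 3 genes, and for Foxn1, whose probe read 0.18, 0.42 and -0.36 in SP4 and -0.17, -0.07 and 0.02 in SP8. Markers of the single-positive stage did not separate the groups either: the probes of Cd3e, Cd3d, Trac, Trbc2, Ccr7, Klf2, S1pr1 and Il7r each overlapped between SP4 and SP8. Cd3e, a signalling chain of the T cell receptor, averaged 0.52 in SP4 and 0.60 in SP8, while fetal liver B cells, which lack that receptor, averaged 0.83. Trbc2 and Trac went the other way and were lower in B cells. Trbc2 averaged 2.71 in SP4, 1.66 in SP8 and -0.36 in B cells, and Trac averaged -0.79, -1.54 and -5.00.

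Among 22 genes of the CD4 lineage, all of them measured, 18 were higher and 4 were lower in SP4, with a median difference of 0.11 beside -0.03 over all genes tested and with no gene called. Nearly all of these differences were small, and the 3 with an unadjusted p under 0.05 (limma) were Satb1, Tcf7 and Il6ra. Each was higher in SP4, as were 1.68% of all genes at that threshold. Satb1, a chromatin organiser of thymocytes, read 2.40, 1.14 and 0.88 in SP4, against 0.27, -0.42 and -6.42 in SP8. All SP4 arrays were higher, by 3.66 ± 1.14 (SE; limma adjusted p 0.742). SP8 replicate 15 was not well above background for Satb1, and without it the difference was 1.54.

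Tcf7 was higher in SP4 on both of its probes. Probe A_52_P244702 read 1.74, -0.49 and 1.31 in SP4, against -0.86, -3.27 and -2.85 in SP8, a difference of 3.18 ± 1.05 (SE; limma adjusted p 0.781). Probe A_55_P2109633 read -1.36, -1.31 and -1.26 in SP4, against -2.38, -3.12 and -7.25 in SP8. The value of -7.25, from SP8 replicate 15, was not well above background. The arrays did not overlap on either probe. Il6ra, the interleukin-6 receptor, read -0.95, -1.47 and -0.39 in SP4, against -1.02, -2.43 and -3.16 in SP8, and there the groups overlapped.

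The list of E proteins, Id proteins and T factors shares Satb1, Tcf7, Gata3, Tox, Myb, Runx1, Lef1, Bcl11b and Ikzf2 with the CD4 lineage list. Its counts are therefore not a separate result. In it 18 of 21 measured genes were higher in SP4, with a median of 0.22 and none called. Ets1 read 3.84, 1.83 and 2.52 in SP4, against 2.03, 0.30 and 0.67 in SP8, on the probe printed above. SP8 replicate 13 exceeded SP4 replicate 11, so the groups overlapped, and the difference was 1.73 ± 0.62 (SE; limma adjusted p 0.842). A second Ets1 probe gave -0.16. The list of T cell receptor constant genes pointed the same way, with 5 of 5 measured genes higher in SP4 and a median of 0.51. They were Trac, Tcra, Trbc1, Trbc2 and Ptcra, none with an unadjusted p under 0.05 (limma). Trac and Tcra both name the alpha chain, and Ptcra encodes the alpha chain of the pre-TCR. The 5 are thus not 5 separate constant genes. Trbc2 read 3.32, 2.04 and 2.77 in SP4, against 2.14, 1.08 and 1.75 in SP8, and its near-identical neighbour Trbc1 read 2.54 to 3.21 in SP4, against 2.17 to 2.75 in SP8. Both overlapped between the groups, and the 2 genes' probes may each bind both transcripts.

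In the ribosomal protein and RNA quality list 14 of 23 genes were higher in SP4, with a median of 0.23, and 8 of the 23 had all SP4 arrays above all SP8 arrays while none had them below, beside 3.98% above and 6.68% below over all genes. None passed the test. Eef2, a translation elongation factor, read 2.39, 2.22 and 2.26 in SP4, against 1.46, 1.34 and 1.04 in SP8. Its difference of 1.01 ± 0.29 (SE; limma adjusted p 0.699) was free of overlap. Rplp0, a protein of the ribosomal stalk, read 0.06, -0.66 and 0.58 in SP4, against -1.05, -0.83 and -1.44 in SP8, but its other probes gave 0.54 and 0.00 with overlapping arrays. The summed signal of this list was 138 to 170 times the 75th percentile in SP4 and 131 to 134 times in SP8. The part that RNA quality or amplification has in the higher T factor signals was not tested.

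**Figure D3:**
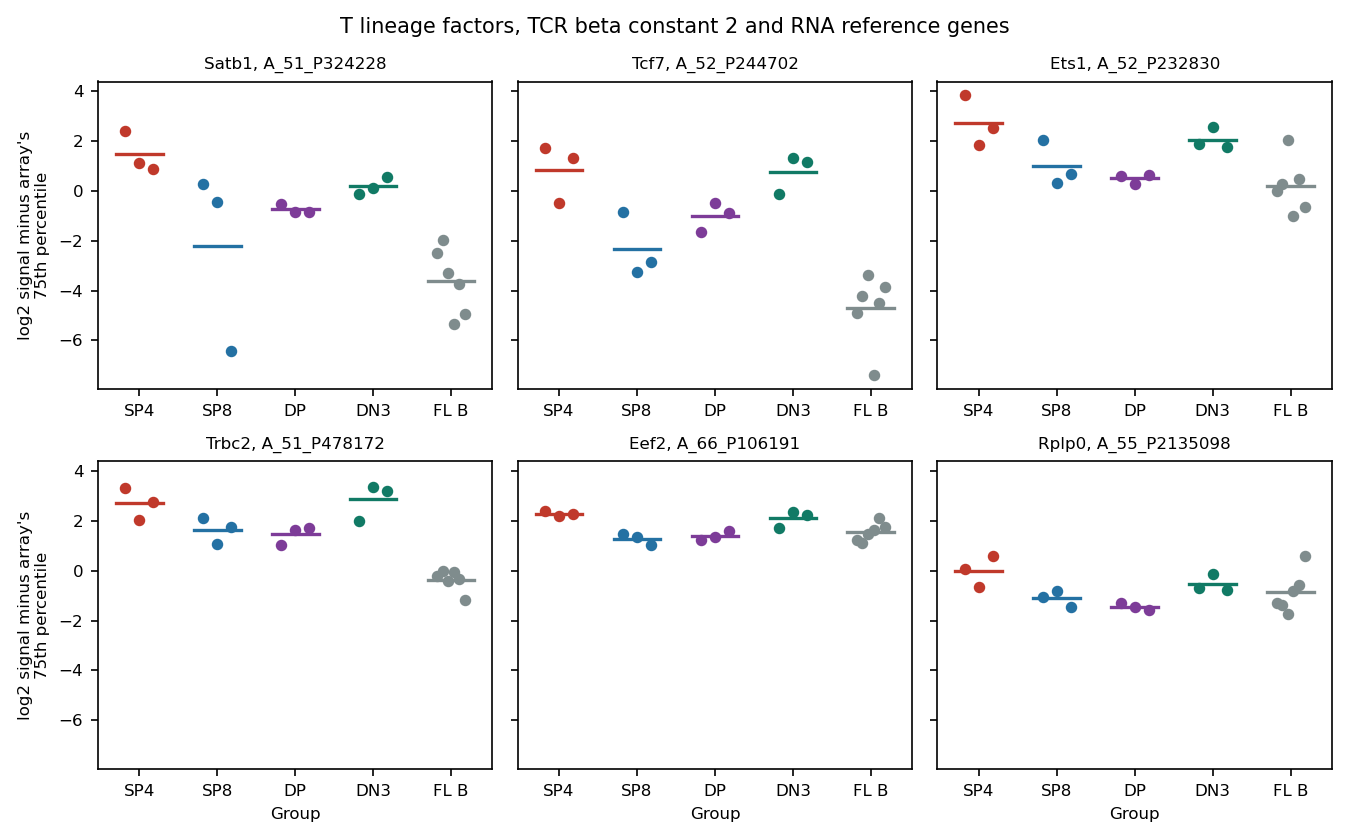
Log2 signal minus each array's 75th percentile for 4 T cell genes and the housekeeping genes Eef2 and Rplp0; points are arrays of SP4, SP8, DP, DN3 and fetal liver B cells (FL B), and bars are group means. SP4 means exceed SP8 means in all 6 panels, and SP8 replicate 15 is far below the other SP4 and SP8 arrays for Satb1. Each gene is among the 4 of its list with the largest absolute moderated t, so the shared direction is not a separate result. Tcf7, Ets1 and Rplp0 have other probes that are not shown.

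Of 22 genes of the CD8 lineage, 20 were measured, of which 8 were higher and 12 lower in SP4, with a median of -0.10 and none called. Il2rb, the beta chain of the interleukin-2 and interleukin-15 receptors, read -0.42, -0.47 and -0.40 in SP4, against -0.12, 0.61 and -0.09 in SP8, without overlap. Socs1, an inhibitor of cytokine signalling, read -0.70, -1.03 and -0.78 in SP4, against -0.64, -0.66 and -0.62 in SP8. The chemokine gene Ccl5 had a difference of -0.37 with overlapping arrays.

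The cytotoxic effector genes were split, with 6 of 13 higher and 7 lower in SP4 and a median of 0.00. Gzmb, the protease granzyme B, read -4.67, -6.24 and -4.98 in SP4, against -3.32, -2.71 and -3.51 in SP8. All SP8 arrays were higher and well above background, as were 2 of 3 SP4 arrays, and the difference was -2.12 ± 0.93 (SE; limma adjusted p 0.949). Srgn, the granule proteoglycan serglycin, read -4.59, -4.18 and -3.48 in SP4, against -2.65, -2.70 and -2.81 in SP8, also without overlap. DP cells read -3.31 to -2.95 for Gzmb, as high as SP8.

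Maturation and egress genes were higher in SP4 for 18 of 24, with a median of 0.20 and none called. The only gene of this list whose arrays did not overlap on the representing probe was Ms4a6b, named after its values were seen, which read -6.04, -6.71 and -4.97 in SP4, against -3.59, -4.26 and -3.26 in SP8, and was well above background on 1 of 3 SP4 arrays. S1pr1, the receptor that guides thymocytes out of the thymus, read -1.64, -4.40 and -1.28 in SP4, against -2.31, -4.94 and -7.34 in SP8, with wide overlap. Gimap4, a GTPase of maturing T cells, gave 0.90 on its brightest probe, with overlap, and 1.58 and 1.26 on its other probes, where all SP4 arrays were above all SP8 arrays. In the T cell receptor complex and proximal signalling list, 15 of 21 genes were higher in SP4, with a median of 0.21. Themis, a selection factor of that list, had a difference of -1.73 with overlapping arrays.

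Among genes that respond to T cell receptor signals, 14 of 23 were higher and 9 lower in SP4, with a median of 0.15. The 3 with all SP4 arrays below all SP8 arrays were Bcl2l11, Egr3 and Dusp5, beside 6.68% of all genes. The 2 with all SP4 arrays above, beside 3.98% of all genes, were Nab2 (0.52) and Tnfrsf9 (0.31), named after their values were seen. Their second probes gave 1.64 for Nab2 and -0.95 for Tnfrsf9, both with overlapping arrays. Bcl2l11, the death inducer Bim, read -2.67, -3.64 and -3.81 in SP4, against -0.41, -1.66 and -2.03 in SP8, a difference of -2.01 ± 0.81 (SE; limma adjusted p 0.917), but its second probe gave 0.65. Egr3, an early response transcription factor, read -1.82, -2.08 and -2.24 in SP4, against -1.67, -1.09 and -0.76 in SP8. Of the MHC class I presentation genes, 15 of 19 were higher in SP4, with a median of 0.20. Psmb8, a subunit of the immunoproteasome, read 1.65, 0.78 and 0.34 in SP4, against -0.17, -0.50 and -1.30 in SP8, a difference of 1.58 ± 0.64 (SE; limma adjusted p 0.917). Erap1, a peptide-trimming protease, was higher by 1.26 without overlap, and the class I gene H2-Q7 by 0.82 with overlap.

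The lists of markers of other cells had medians near that of all genes, except that erythroid genes were lower in SP4. Of 12 erythroid genes measured, 11 were lower in SP4, with a median of -0.38, and the summed signal of the list was 4.6 to 5.8 times the 75th percentile in SP4 and 6.2 to 7.4 times in SP8. Hbb-b2, a beta globin, read -4.44, -3.21 and -3.47 in SP4, against -3.00, -2.73 and -2.08 in SP8. Tfrc, the transferrin receptor, which dividing lymphocytes also express, gave -3.27 on its brightest probe, which was well above background on 1 of 3 SP4 arrays and 3 of 3 SP8 arrays, and 1.43 on another. In these bulk samples fewer cells of a type and less RNA per cell cannot be told apart.

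Myeloid and dendritic markers were higher in SP4 for 10 of 22 and lower for 12, with a median of -0.03 and a summed signal of 331 to 380 in SP4 and 288 to 339 in SP8. Most of that sum came from the probes of Itgam and Siglech, and without them, a choice made after the values were seen, it was 36.0 to 38.7 in SP4 and 36.8 to 41.1 in SP8. In this list 4 of 22 genes had an unadjusted p under 0.05 (limma), each lower in SP4, beside 3.46% of all genes. These were Tyrobp, Zbtb46, Adgre1 and Fcer1g, the last with a difference of -0.91 and overlapping arrays. Tyrobp, a myeloid and natural killer adaptor, read -3.19, -2.80 and -2.14 in SP4, against -0.93, -0.69 and -1.41 in SP8. Zbtb46, a dendritic cell factor, had a difference of -1.01 without overlap, and Adgre1, the macrophage marker F4/80, gave -0.54 on its brightest probe and 2.37 on its other probe. B cell markers were higher in SP4 for 8 of 17, with a summed signal of 58.7 to 59.6 in SP4 and 50.1 to 60.2 in SP8. Thymic epithelial and stromal markers were higher for 8 of 21, with a summed signal of 36.9 to 38.1 in SP4 and 36.7 to 42.1 in SP8. No tested gene of these 4 lists was below background on all 6 arrays.

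**Figure D4:**
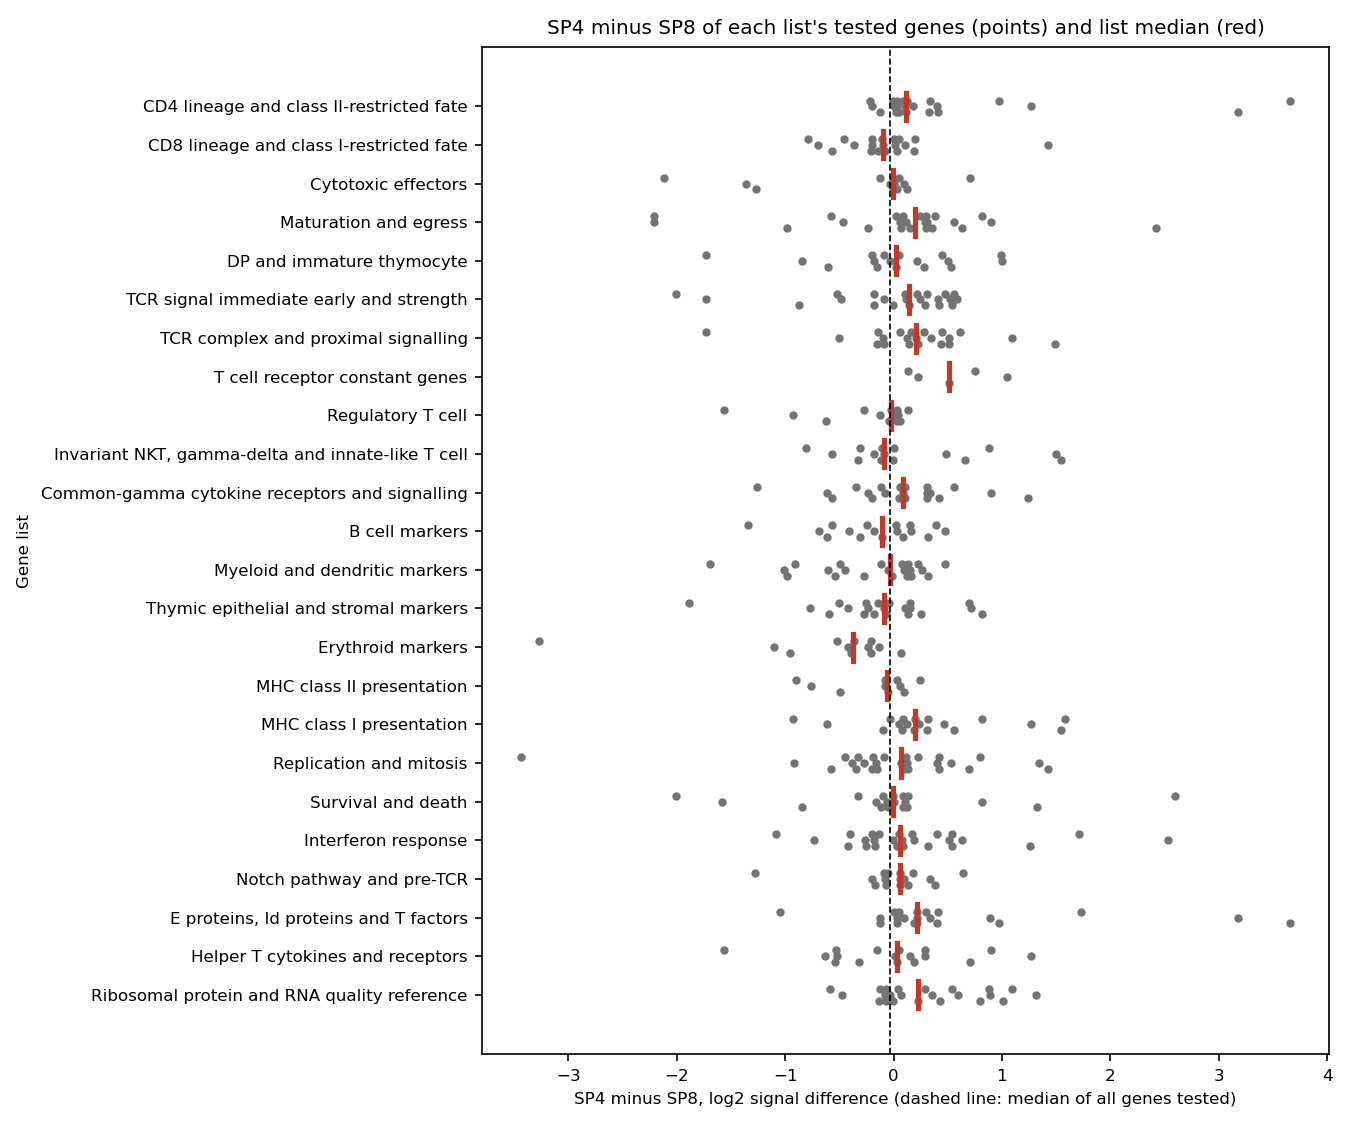
SP4 minus SP8 (log2 signal difference) of each measured gene (points) in 24 gene lists, with the list's median in red and the median of all genes tested (-0.03) as a dashed line. List medians lie between -0.38 for erythroid markers and 0.51 for T cell receptor constant genes, and single genes scatter far beyond them.

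The remaining lists had medians close to that of all genes. Replication and mitosis genes were higher in SP4 for 14 of 27, with a median of 0.07. Mcm2, a subunit of the replicative helicase, read -7.07, -7.36 and -7.79 in SP4, where no array was well above background, against -4.25, -3.75 and -3.90 in SP8. By group means it was at least 2.56-fold lower in SP4 (limma adjusted p 0.752). Mcm5, a further subunit, was higher by 0.80 and the mitotic checkpoint kinase Bub1b by 1.34, both without overlap, so genes of this list did not share a direction. Regulatory T cell genes were higher in SP4 for 6 of 13 (median -0.02) and innate-like T cell genes for 6 of 15 (median -0.09). DP and immature thymocyte genes were higher for 9 of 17 (median 0.02), Notch and pre-TCR genes for 9 of 16 (median 0.06), and interferon response genes for 15 of 26 (median 0.06). Survival and death genes were higher for 9 of 19 (median 0.00), helper T cytokine genes for 10 of 17 (median 0.03), and MHC class II presentation genes for 4 of 10 (median -0.06). Of the common-gamma cytokine receptor genes, 13 of 21 were higher (median 0.09). The kinase Jak1 was the 1 gene with all SP4 arrays above all SP8 arrays, beside 3.98% of all genes. It read -2.00, -2.08 and -2.54 in SP4, against -3.35, -3.56 and -3.42 in SP8. The 3 with all SP4 arrays below, beside 6.68% of all genes, were Il2rb (-0.57), Socs1 (-0.20) and Socs2 (-1.26).

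Ranked by moderated t, the genes that led the comparison belonged to neither lineage list. They were taken from genes with a symbol, no overlap between the groups and a probe well above background on every array of the higher group. Those higher in SP4 included Ptgir, Ngdn, Rsph6a, Rps6ka6, 4930470P17Rik, Rgs10, Gpr165, Irak4 and Clk2, with differences of 1.32 to 3.13 and limma adjusted p from 0.365 to 0.554. Of these, Ptgir was well above background on no SP8 array and by group means was at least 1.93-fold higher in SP4. 4930470P17Rik was well above background on 1 and Gpr165 on 2 of 3 SP8 arrays. Irak4, a kinase of Toll-like and interleukin-1 receptor signalling, read -1.55, -0.23 and -0.16 in SP4, against -2.86, -2.53 and -3.17 in SP8. Its second probe gave 0.70 with overlapping arrays. Rps6ka6, a ribosomal S6 kinase, read -0.79, -0.86 and -0.68 in SP4, against -2.33, -2.73 and -3.16 in SP8, while its second probe gave -0.66. Rsph6a, a radial spoke protein of cilia, read -0.10, 1.59 and 1.63 in SP4, against -0.15, -0.88 and -0.82 in SP8; among the alternatives tried it passed the test only without SP4 replicate 10 (2.23, limma adjusted p 0.0142).

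The 10 lower in SP4 were Tas2r136, Nelfb, Decr1, 2310034O05Rik, B4galnt1, AI597479, Iffo1, Prss21, Gm9789 and 4933417D19Rik, with differences of -3.19 to -1.61. Of these, 2310034O05Rik and AI597479 were well above background on no SP4 array and by group means were at least 2.69-fold and 3.19-fold lower in SP4. Nelfb, a subunit of the negative elongation factor of RNA polymerase II, read -5.06, -5.07 and -4.73 in SP4, against -2.38, -2.50 and -2.71 in SP8. Its difference was -2.42 ± 0.48 (SE; limma adjusted p 0.365), with 2 of 3 SP4 arrays well above background. Decr1, a mitochondrial enzyme of fatty acid oxidation, read -3.77, -3.16 and -3.94 in SP4, against -2.16, -1.48 and -1.69 in SP8, but its second probe overlapped. Tas2r136, a bitter taste receptor, was lower in SP4 on both of its probes, with differences of -1.61 and -1.95.

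**Figure D5:**
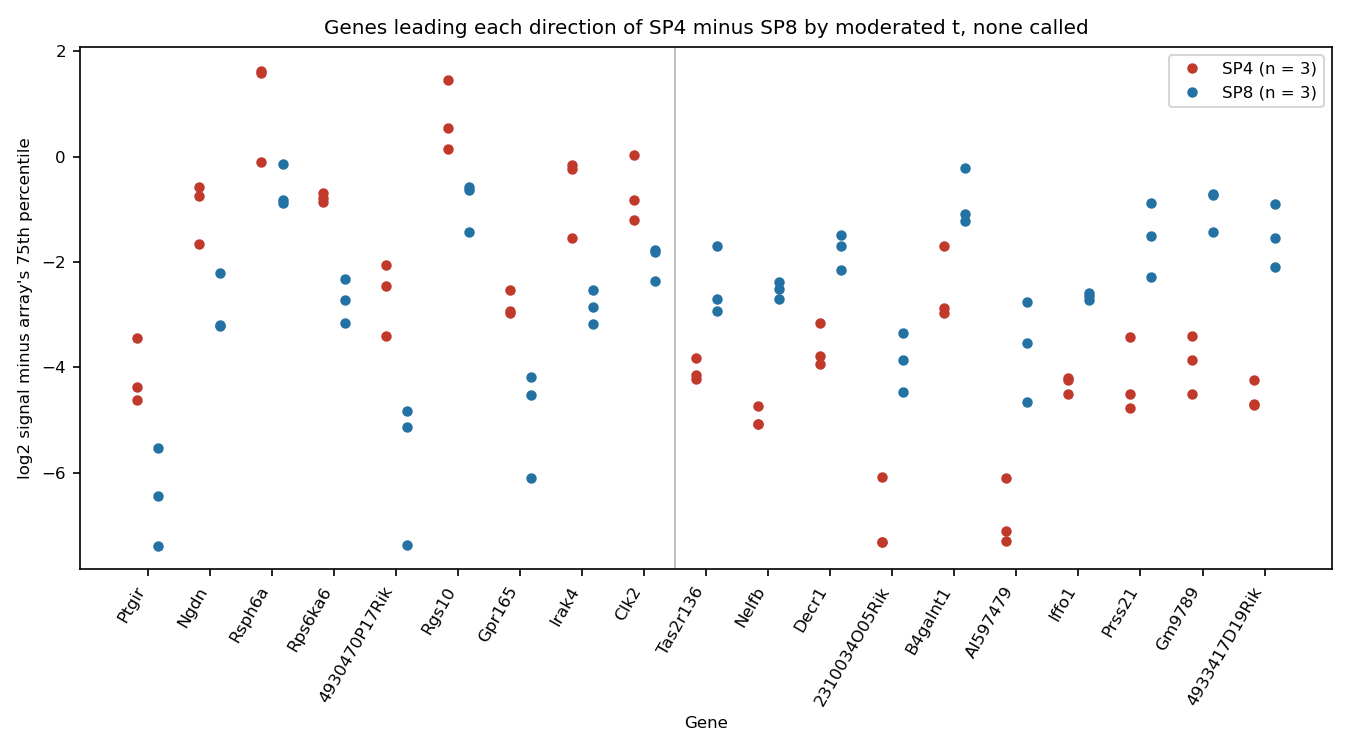
Log2 signal minus each array's 75th percentile of leading genes by moderated t, those higher in SP4 left of the grey line and the 10 lower in SP4 right of it; red points are SP4 arrays and blue points SP8 arrays, n = 3 each. Only genes whose groups do not overlap were eligible to be shown, and no gene passed the adjusted test.

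Probes that represent the same gene often disagreed. Of 5858 genes with exactly 2 tested probes, 56.6% had the same sign of SP4 minus SP8 on both. Among the 654 of them whose representing probe did not overlap between the groups, 62.2% had the same sign.

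Few probes were detected in 1 group alone. Of 55681 probes, 44849 were well above background on all 6 arrays. There were 23 probes (0.0413%) well above background on all SP4 arrays and no SP8 array, and 132 (0.237%) on all SP8 arrays and no SP4 array. Leaving out any 1 array raised these counts to between 40 and 323 for SP4 and between 148 and 359 for SP8, the highest SP4 count being that without SP8 replicate 13. The bounds given here compare group means and take no account of the spread. The 5 largest in the SP4 direction included Adar, an RNA-editing enzyme, at least 6.64-fold higher in SP4 by group means. Its probe read -3.98, -0.61 and -2.51 there. They also included D330050I16Rik, at least 3.91-fold higher by group means. In the other direction they included the potassium channel gene Kcnq5, at least 11.5-fold lower in SP4 by group means, and the cytochrome gene Cyp1b1, at least 9.14-fold lower. Leaving out SP4 replicate 11 lowered the Adar bound to 3.62, and the second Adar probe, well above background on all 6 arrays, gave -0.16 with overlapping arrays. The Kcnq5 bound was 8.56 to 15.7 with each SP8 array left out, and its other probes gave -1.67 and -0.59 with overlapping arrays. Bounds with an array left out were added after the values were seen. The other 3 on each side were probes for non-coding transcripts without a symbol. The limma adjusted p of these 4 genes' probes was 0.858 for Adar, 0.964 for D330050I16Rik, 0.866 for Kcnq5 and 0.716 for Cyp1b1.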

How the data were processed

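The authors deposited Agilent spot files of design 028005 whose intensity values (processed signal, background-subtracted) came from Feature Extraction 10.7.3.1, per the file headers. They also deposited log2 values of all arrays in a series table, used as an alternative, whose program is not named in any source used here. Control spots and outlier-flagged spots were left out, and spots of a probe averaged. Log2 of the processed signal minus each array's 75th percentile was fitted with limma 3.58.1 (R 4.3.3) over all 24 arrays in 8 groups. The brightest probe over all arrays stood for each gene, and the 33464 genes tested had values on every array and a probe well above background on all arrays of at least 1 group. Calls needed a Benjamini-Hochberg adjusted p under 0.05, and the fit was tested on simulated data. A bound on a fold sets the dim group, per array, at the higher of its own signal and the lowest well-above-background signal. It compares group means and takes no account of the spread. Of 435 listed genes 403 were tested; members and lists were chosen with earlier results of these data known. Named genes were those leading by moderated t in each direction (10 a side), up to 4 of each list, the lineage lists and all probes of the coreceptors, Zbtb7b and Runx3. Some genes that these rules select are not reported here. The number of arrays limits the precision. Gene names came from accessions for 26762 probes, and 24458 probes bear the files' own, possibly outdated, names.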

Additional observations from a re-analysis of the deposited data

How the results depend on the processing

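The count of genes called was 0 under every scaling, with slide as a block, within the slide that held SP4 10, SP4 12 and all SP8 arrays, with array weights and under both filters tried. Leaving out each replicate in turn gave 0 to 2 calls, the 2 being Rsph6a (2.23) and Prdx6b (-5.11) without SP4 replicate 10, which was the only SP4 array with Prdx6b well above background. The probe-level count was 0 except in a fit of the 6 SP4 and SP8 arrays alone, which called 2 probes, Glmn (-4.50) and a non-coding transcript (-5.29), neither well above background on any SP4 array. The count of genes without overlap was 1809 higher and 1769 lower in SP4 with median scaling, 3021 higher and 4624 lower in SP4 on the shared slide, and 1935 to 3223 higher and 3592 to 4624 lower when each replicate was left out, which fewer arrays alone make easier. Signs turned only for differences near 0 or probes that disagree. Zbtb7b was -0.018 with quantile scaling, -0.015 in the authors' values and -0.026 with array weights, and -0.050 to 0.057 with a replicate left out. Runx3 was -0.085 on the shared slide and -0.085 to 0.38 with a replicate left out. Cd40lg was -0.048 with normexp and -0.013 to 0.23 with a replicate left out. Over the mean of a gene's probes Cd8a was -1.96 and Adgre1 0.92, and the brighter Cd8a probe gave -0.19 to 0.26 with a replicate left out. The medians of the CD4 lineage, CD8 lineage, T factor, erythroid, MHC class I and RNA quality lists kept their sign in 17 of 17 alternatives. No paired analysis was made. Replicate numbers run on through the series, so whether SP4 and SP8 arrays share animals cannot be read from them. SP4 replicate 11 was alone on its slide among the 6.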

Other observations

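Of 62 probes for variable segments of the T cell receptor genes, a set chosen after the values were seen, 32 were higher in SP4, with a median difference of 0.01. No probe had an adjusted p under 0.05, and 3 (4.84%) had an unadjusted p under 0.05 (limma), beside 5.17% of all probes tested. These 3 were beta variable 29 (-1.64), alpha variable 5-4 (0.99) and beta variable 21 (-1.18). The probe for T cell receptor beta variable segment 29 read -2.85, -3.08 and -4.40 in SP4, against -2.77, -1.41 and -1.23 in SP8.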
